A study of Mus musculus with 9 samples.

Results

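The genes of the aminoacyl-tRNA synthetases were described in growing mouse oocytes of XX, XO, and XY females. Members were the genes on chromosomes 1 to 19 whose symbol is a letter followed by ars, with or without a closing 1 or 2, together with Eprs, Farsa, Farsb and Tarsl2. The rule found 37 of the 28051 genes in the expression matrix, of which 26808 lie on these chromosomes. Symbols without a closing 2 were taken as cytosolic (20 genes) and those ending in 2 as mitochondrial (16 genes), while Tarsl2, a threonyl synthetase like gene, was kept apart. All 37 were protein-coding in the annotation, and they lay on 15 chromosomes, with 6 of them on chromosome 1.

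Each sample was a pool of 30 oocytes from females 18 days after birth, made up of 20 larger oocytes (55–60 µm in diameter) and 10 smaller ones (50–55 µm), with 3 pools per genotype. The strain was C57BL/6 (B6) in every label. The XY females had B6.Y TIR sires and B6 dams, and the XX group was made up of their sisters. XO females came from B6 females mated with carriers of the Paf mutation, which was brought from C3H/HeSnJ onto B6 by backcrossing, so the XO pools also differ from the others in their sires. Transcripts were counted by Smart-seq3, which puts a unique molecular identifier (UMI) on the 5′ end of each captured molecule. A level below is thus a relative number of molecules, not an amount per oocyte, and was not divided by transcript length. Levels are the normalized CPM of the authors, which are gene UMIs scaled to the library total (CPM) and divided by a factor from the ERCC spike-in RNAs.

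An aminoacyl-tRNA synthetase joins an amino acid to the transfer RNAs that read its codons, and ribosomes depend on the charged transfer RNAs that result. Most amino acids have separate nuclear genes for the cytosolic and the mitochondrial enzyme, whereas Gars and Kars supply both compartments, and Eprs joins glutamyl and prolyl synthetases in a single protein. The products of Dars, Eprs, Iars, Kars, Lars, Mars, Qars and Rars sit together with 3 scaffold proteins in the multisynthetase complex, and phenylalanyl synthetase is built from the subunits Farsa and Farsb.

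The 9 samples held between 2130145 and 3157338 gene UMIs, and 3026 to 6371 of these lay on the 37 genes, or 0.139 to 0.253% of a sample. XO1 and XY1 stood apart from the rest, since 13.1 and 10.8% of their UMIs came from the mitochondrial genome against 2.65 to 6.02% in the other 7 samples. XO2 and XO3 stood apart in another way, as 8 of 10 oocyte markers were higher in both than in any other sample, which held for 31.9% of the 10993 tested genes. Zp1, a protein of the egg coat, measured 759 and 2166 normalized CPM there against 13.98 to 129 in the other 7 samples, Gdf9, an oocyte growth factor, 869 and 2432 against 234 to 350, and Nobox, an oocyte transcription factor, 522 and 1138 against 51.6 to 185. The oocyte label was borne out by 10 of 10 oocyte markers, whose summed level was 22353 to 26137 normalized CPM in XX, 9114 to 40047 in XO, and 13946 to 24657 in XY oocytes, lowest in XO1, with Zp2 as its largest part. Of 10 granulosa markers 5 were listed, with a sum of 15.8 to 21.0 in XX, 9.84 to 16.4 in XO and 12.7 to 17.7 in XY oocytes. Kitl made up most of it, Fst and Inha were at 0 in 8 of 9 samples each, and Amh and Foxl2 had no row in the matrix. Inhba was found in all 9 samples, at 0.609 to 3.25. Fshr was highest in XO2 and XO3, at 3.10 and 4.52 against 0 to 1.39 in the other 7 samples. Theca and stroma markers summed to 0.465 to 3.92, and none of the 3 blood markers was listed. In such bulk samples, fewer cells of a type and less RNA per cell cannot be told apart.

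Upstream sequences were taken from RefSeq (GRCm38.p6), whose promoter table matched 27 of the 37 members. Shown first are the bases before the start of Farsa and Farsb, the subunits of a single enzyme that differed widely in level, and of Iars and Lars2. In the edgeR test below, Iars and Lars2 were called lower in XX than in XO oocytes before adjustment only. The XX and XO samples of Iars overlapped. Each sequence ends before the first annotated exon and overlaps no exon, and capitals mark the E-box CACGTG.
Farsa, chr8:84856736-84856985, plus strand: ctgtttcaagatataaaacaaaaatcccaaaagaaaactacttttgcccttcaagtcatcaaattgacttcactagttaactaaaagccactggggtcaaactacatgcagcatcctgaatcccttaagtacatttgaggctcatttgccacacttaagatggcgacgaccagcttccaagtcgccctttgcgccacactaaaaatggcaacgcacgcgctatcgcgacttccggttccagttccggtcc
Farsb, chr1:78488898-78489147, minus strand: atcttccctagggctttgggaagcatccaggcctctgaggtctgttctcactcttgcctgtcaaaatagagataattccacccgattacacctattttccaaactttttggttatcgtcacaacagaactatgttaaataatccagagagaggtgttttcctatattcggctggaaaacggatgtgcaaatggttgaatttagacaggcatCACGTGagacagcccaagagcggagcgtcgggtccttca
Iars, chr13:49681880-49682099, plus strand: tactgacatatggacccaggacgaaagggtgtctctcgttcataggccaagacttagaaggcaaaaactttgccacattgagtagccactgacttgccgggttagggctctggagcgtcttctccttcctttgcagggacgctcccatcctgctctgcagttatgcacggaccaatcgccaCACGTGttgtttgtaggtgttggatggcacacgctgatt
Lars2, chr9:123366677-123366926, plus strand: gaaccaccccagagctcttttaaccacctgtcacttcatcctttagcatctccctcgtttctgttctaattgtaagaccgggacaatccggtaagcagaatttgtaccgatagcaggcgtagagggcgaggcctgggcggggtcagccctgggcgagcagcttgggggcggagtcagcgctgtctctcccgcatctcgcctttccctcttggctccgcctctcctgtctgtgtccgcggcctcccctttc
Farsb and Iars each held a CACGTG, while neither Farsa nor Lars2 held it in this window. Over the 300 bases from 250 before to 50 after the start, 5 of the 27 members held CACGTG on either strand (Aars, Farsb, Iars, Tars and Ears2), and 7.15% of all 32851 promoters did.

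The letters TGATGNAA, the core of the element that binds C/EBP and ATF4 dimers in amino acid response genes, were found in 5 of 27 members and in 3.97% of all promoters on either strand. All 5 were cytosolic (Aars, Gars, Iars, Tars and Yars). A stretch of each gene is shown so that the matches can be read side by side, with the match in capitals on the strand of the gene and most of them reading the motif from the other strand. The windows of Aars, Iars, Tars and Yars touch an annotated exon, and that of Gars does not.
Aars, chr8:111033840-111033869, plus strand: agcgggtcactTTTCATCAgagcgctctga
Gars, chr6:55037960-55037989, plus strand: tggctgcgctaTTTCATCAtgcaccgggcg
Iars, chr13:49682126-49682155, plus strand: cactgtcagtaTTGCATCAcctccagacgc
Tars, chr15:11399655-11399684, minus strand: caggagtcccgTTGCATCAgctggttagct
Yars, chr4:129189895-129189924, plus strand: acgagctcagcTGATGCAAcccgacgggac
Another motif, GCATGCGC, the core bound by NRF1, was found in 3 mitochondrial members (Rars2, Vars2 and Wars2) and in 2.71% of promoters, and none of these 3 genes held the motifs above. These matches are letters in a window and were not tested as binding sites.

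The levels of the 37 genes spread over 1597-fold. The mean over 9 samples ran from 0.311 normalized CPM for Cars2 to 497 for Lars2, with a median of 6.18, while the median of the 10993 genes that passed the filter for testing was 17.5. Of the 37, 10 had a mean above 50 and 23 a mean below 10. The cytosolic median was 6.71 and the mitochondrial median 4.81. The plot of levels by sample shows that few genes hold most of the UMIs: the 3 highest took 52.6% of all UMIs of the 37, 56.7% within the cytosolic and 88.4% within the mitochondrial class.

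**Figure D1:**
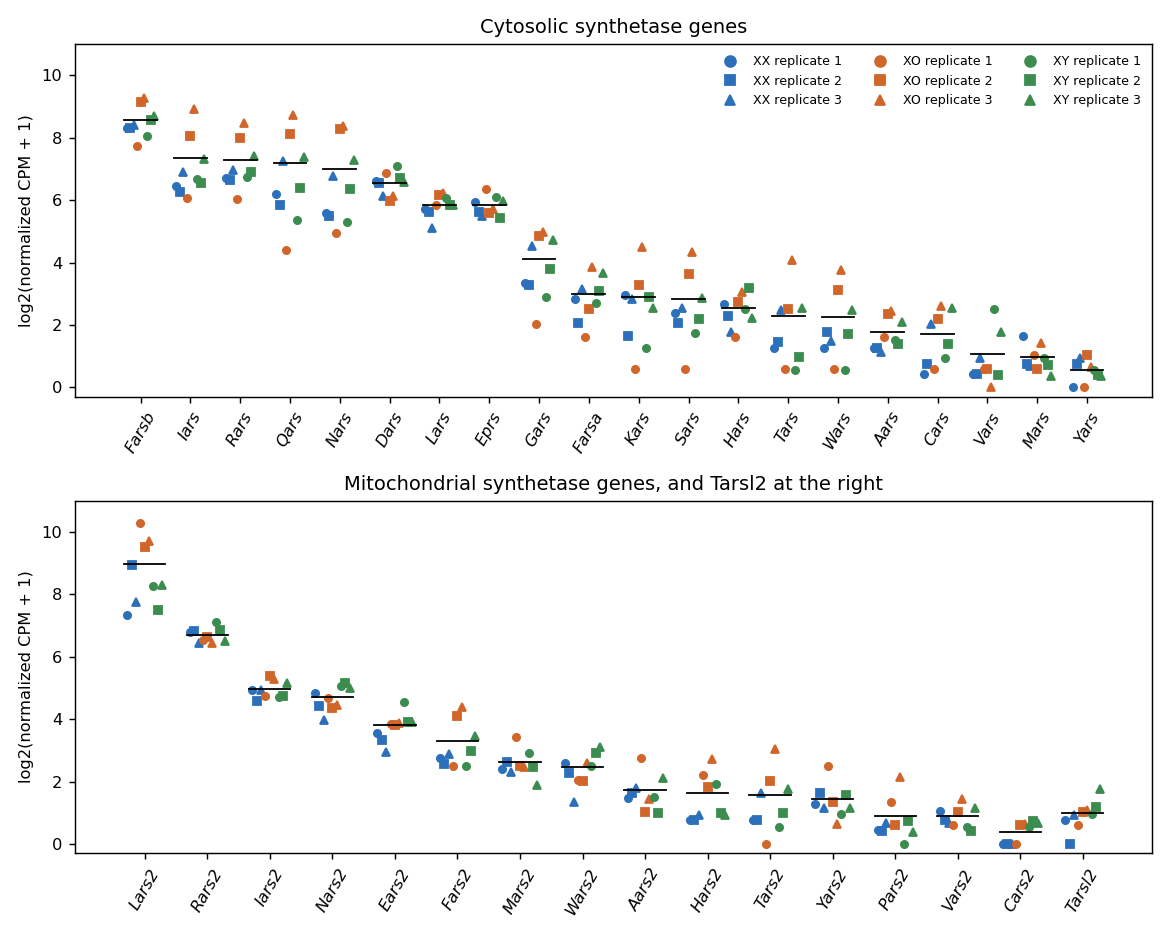
Level of 36 of the 37 synthetase genes in each of the 9 samples, on the scale log2(normalized CPM + 1), ordered by mean within cytosolic genes (top) and mitochondrial genes with Tarsl2 (bottom). Points are samples, colored by genotype and shaped by replicate, and short lines are means over 9 samples. Lars2 at 497 and Farsb at 381 normalized CPM have the highest means, and XO1 (orange circles) lies below the other XO samples in most cytosolic genes.

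Among the cytosolic genes, Farsb, which encodes the beta subunit of phenylalanyl synthetase, was the highest. It measured 313, 317 and 342 normalized CPM in XX oocytes, 212, 569 and 620 in XO oocytes, and 262, 379 and 411 in XY oocytes. XX samples lay close together, and the XO samples took in both the lowest and the highest of all 9. Farsa, its alpha subunit, measured 6.06, 3.15 and 7.92 in XX, 2.07, 4.65 and 13.5 in XO, and 5.58, 7.49 and 11.8 in XY oocytes. Within a sample Farsb had 34.9 to 122 times the UMIs of Farsa, so the subunits of this enzyme were unequal in transcript number in all 9 samples.

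Iars, which charges isoleucine, came second with 86.2, 75.3 and 119 normalized CPM in XX, 65.8, 267 and 483 in XO, and 100, 93.1 and 157 in XY oocytes. Rars, the arginyl enzyme, followed with 104, 98.0 and 125 in XX, 64.2, 252 and 351 in XO, and 107, 119 and 168 in XY oocytes. Farsb was above Iars in 9 of 9 samples, but Iars was above Rars in only 3 of 9, so that Iars and Rars had no fixed order. Rars, Qars and Nars followed each other with means of 154, 144 and 127, and Rars was above Qars in 6 of 9 samples and Qars above Nars in 7 of 9. Dars (93.2), Lars (56.9) and Eprs (55.8) closed the group above 50, and Lars was above Eprs in 3 of 9 samples.

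The genes of the multisynthetase complex stood high, with a median mean level of 75.1 normalized CPM and 6 of 8 above 50, while the other 12 cytosolic genes had a median of 4.34 with 2 of 12 above 50 (Farsb and Nars). Kars and Mars were the exceptions. Kars, the lysyl enzyme, had a mean of 6.49. Mars, the methionyl enzyme, had a mean of 0.953, and it measured 2.14, 0.700 and 0.609 in XX, 1.04, 0.517 and 1.69 in XO, and 0.930, 0.651 and 0.302 in XY oocytes, from 21 UMIs in all. Mars was listed below every other member of the complex.

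The lowest cytosolic genes were Yars, Mars and Vars, the tyrosyl, methionyl and valyl enzymes. Yars measured 0, 0.700 and 0.914 in XX, 0, 1.03 and 0.565 in XO, and 0.465, 0.326 and 0.302 in XY oocytes, from 11 UMIs. Vars measured 0.356, 0.350 and 0.914 in XX, 0.518, 0.517 and 0 in XO, and 4.65, 0.326 and 2.41 in XY oocytes, from 26 UMIs. At 3 UMIs per genotype, the limit that a count of 0 allows, a level corresponds to 0.335 (XX), 0.532 (XO) and 0.351 (XY) normalized CPM. In XY oocytes Vars was above this limit, with a mean of 2.46 from 19 UMIs, but XY2 held only 1 of them. Yars and Mars had means of 0.364 and 0.627 there. The order among these 3 genes was not tested. This limit covers counting error only.

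Among the mitochondrial genes, Lars2 was far above the rest, but it was above Farsb, the next of the 37, in only 5 of 9 samples. Its values are given with the comparison of genotypes. Rars2, the arginyl enzyme of mitochondria, came second with 109, 113 and 85.6 normalized CPM in XX, 92.7, 98.2 and 86.4 in XO, and 137, 114 and 89.0 in XY oocytes. Its highest sample was only 1.60 times its lowest, the smallest spread of any of the 37 genes. Iars2, the isoleucyl enzyme, followed with 29.9, 22.8 and 29.6 in XX, 25.9, 40.3 and 38.4 in XO, and 25.1, 26.0 and 34.7 in XY oocytes. Rars2 and Iars2 overlapped between all 3 genotypes. Nars2 (25.1) and Ears2 (13.0) were the other mitochondrial genes above 10.

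The lowest mitochondrial genes were Cars2, Vars2 and Pars2, the cysteinyl, valyl and prolyl enzymes. Cars2 measured 0, 0 and 0 in XX, 0, 0.517 and 0.565 in XO, and 0.465, 0.651 and 0.604 in XY oocytes, from 7 UMIs in all. Vars2 measured 1.07, 0.700 and 0.609 in XX, 0.518, 1.03 and 1.69 in XO, and 0.465, 0.326 and 1.21 in XY oocytes. Neither was far above the limit given by 3 UMIs. Pars2 measured 0.356, 0.350 and 0.609 in XX, 1.55, 0.517 and 3.39 in XO, and 0, 0.651 and 0.302 in XY oocytes. Tarsl2 measured 0.712, 0 and 0.914 in XX, 0.518, 1.03 and 1.13 in XO, and 0.930, 1.30 and 2.41 in XY oocytes, from 24 UMIs. Pars2 overlapped between all genotypes. In normalized CPM Tarsl2 was lower in all XX than in all XY samples, by 0.914 against 0.930 at the closest, and otherwise overlapped. Its UMIs overlapped, with 2, 0 and 3 in XX and 2, 4 and 8 in XY oocytes. Of all tested genes, 11.7% had XX below XY without overlap. Both were below the filter for testing.

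The cytosolic and mitochondrial genes of the same amino acid were set side by side in 17 pairs. The cytosolic gene had the higher mean in 12 pairs and the mitochondrial gene in 5, and the median ratio was 1.96. The cytosolic gene was higher in 9 of 9 samples in 7 pairs, among them Eprs with Pars2 and with Ears2, Farsb with Fars2, Cars with Cars2, Iars with Iars2 and Nars with Nars2. The pair with the highest ratio was Eprs to Pars2, whose means differed by 65.0-fold and whose ratio ran from 15.2 to 203 over the samples in which Pars2 had a UMI. The values of Eprs were 59.8, 47.6 and 43.9 in XX, 80.3, 47.6 and 51.4 in XO, and 68.3, 42.0 and 61.3 in XY oocytes. It thus stayed within 1.91-fold over the samples.

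The pairs of leucine and methionine were turned the other way, with the mitochondrial gene higher in 9 of 9 samples. The ratio of Lars to Lars2 was 0.115 by means and 0.0456 to 0.319 over samples, the lowest of all pairs. The ratio of Mars to Mars2 was 0.185, where Mars2 measured 2.72 to 9.84 normalized CPM. Arginine was the most even of the highly expressed pairs, with Rars above Rars2 in 5 of 9 samples.

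Summed over genes, the cytosolic and mitochondrial classes behaved differently over the samples. The cytosolic sum was 870, 809 and 1048 normalized CPM in XX, 659, 1936 and 2538 in XO, and 848, 1003 and 1341 in XY oocytes. XO2 and XO3 were above every other sample and XO1 was below every other. Gene by gene, XO2 and XO3 were both above the other 7 samples in 11 of 20 cytosolic and 3 of 16 mitochondrial genes, beside 31.9% of all tested genes. The oocyte markers named above were high in the same samples, and their part in these values was not tested. The mitochondrial sum without Lars2 was 205, 199 and 162 in XX, 203, 213 and 217 in XO, and 250, 225 and 209 in XY oocytes, a narrow range in which only XX3 and XY1 stood slightly away. These sums, with Lars2 shown apart, are in the plot of summed levels.

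**Figure D2:**
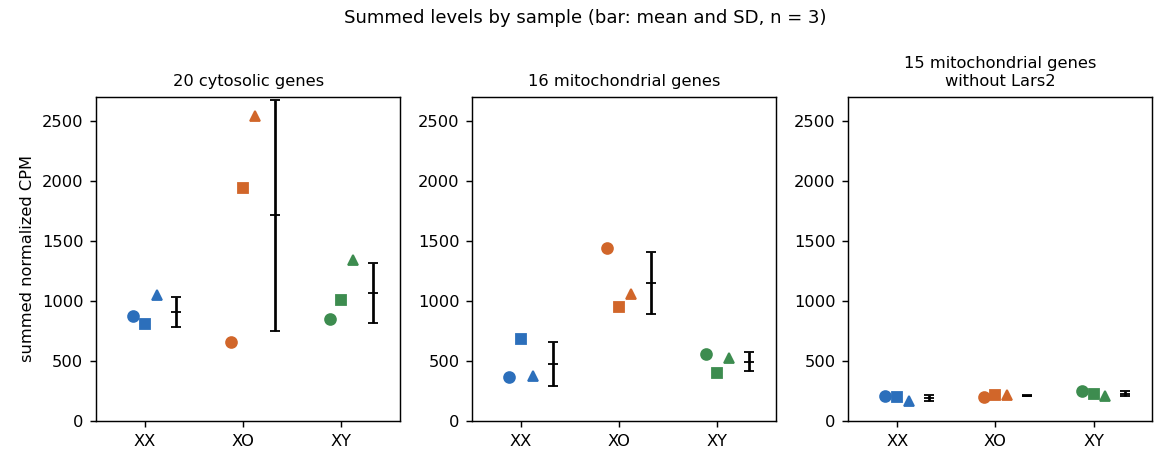
Summed normalized CPM (linear axis from 0) of the cytosolic genes, the mitochondrial genes, and the mitochondrial genes without Lars2, by genotype. Points are samples (circle, square and triangle for replicates 1, 2 and 3), and the black bar is the mean ± SD with n = 3. The cytosolic sum in XO spans 659 to 2538, whereas the mitochondrial sum without Lars2 stays between 162 and 250 in all 9 samples.

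The share of synthetase UMIs that came from mitochondrial genes was 34.0% ± 10.5 for XX, 32.1% ± 6.55 for XY and 43.6% ± 21.7 for XO oocytes (SD, n = 3 each). In single samples it was 29.7, 45.9 and 26.3% in XX, 68.6, 32.9 and 29.4% in XO, and 39.7, 28.7 and 28.0% in XY oocytes. The genotypes overlapped, and XO1 was far above all others. Without Lars2 the share was 17.4% ± 3.50 for XX, 18.2% ± 4.62 for XY and 13.8% ± 8.53 for XO oocytes, and XO1 (23.6%) was still above XO2 (9.91%) and XO3 (7.87%).

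XO1 differed from XO2 and XO3 mainly in the cytosolic genes. It was the lowest XO sample in 16 of 20 cytosolic and 5 of 16 mitochondrial genes, and in 52.9% of all tested genes. Among tested members, the level in XO1 divided by the mean of XO2 and XO3 had a median of 0.175 for 15 cytosolic genes and 1.02 for 9 mitochondrial genes, against 0.764 over the 10983 tested genes that have this ratio. The ratio was 0.0575 for Qars, from 39 UMIs in XO1, and 0.0920 for Nars, from 57 UMIs. Sars, Kars, Tars and Wars had still lower ratios, but each had only 1 UMI in XO1, so these are imprecise. Dars (1.79) and Eprs (1.62) went against this and were higher in XO1, and among the mitochondrial genes Fars2 (0.260) was low. The mitochondrial genome share of XO1, the highest of the 9 samples, moved with these values, and its part in them was not tested.

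**Figure D3:**
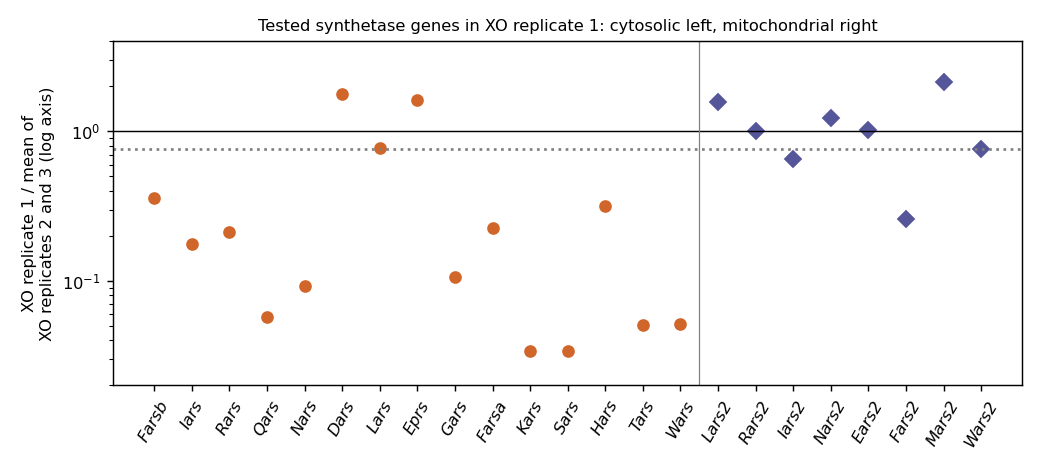
Level in XO1 divided by the mean of XO2 and XO3 for 23 of the 24 tested synthetase genes (log axis), with cytosolic genes as orange circles and mitochondrial genes as blue diamonds. The solid line marks equal levels and the dotted line the median of all tested genes (0.764). Of 15 cytosolic genes 12 lie below 0.5, and of the 8 mitochondrial genes drawn only Fars2 does.

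The comparison of genotypes asks how the X chromosome complement affects oocyte transcripts. The edgeR quasi-likelihood test on UMI counts with the spike-in factors was run on the 24 of the 37 members that passed the filter on low counts, 15 cytosolic and 9 mitochondrial. The other 13 fell below it: Aars, Cars, Mars, Vars, Yars, Aars2, Cars2, Hars2, Pars2, Tars2, Vars2, Yars2 and Tarsl2. A difference was called at an unadjusted p below 0.05. Benjamini-Hochberg adjusted p-values over all 10993 tested genes (adjusted p) are given beside the estimates. No member passed at an adjusted p of 0.05 in any of the 3 comparisons, where 0%, 0.0819% and 0.0364% of all tested genes did (XX against XO, XX against XY, XY against XO). Under the spike-in scaling the median log2 fold change of all tested genes was −0.46 for XX against XO, −0.19 for XX against XY and −0.30 for XY against XO, and scaling with TMM on the genes brought these medians to −0.03, −0.04 and −0.02.

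In XX against XO oocytes, 22 of the 24 members had a negative log2 fold change, and 4 were called lower in XX: Lars2, Iars, Fars2 and Lars. None was called higher. Over all tested genes 16.7% were called lower and 1.4% higher, so that 4 of 24 is near the background. This fit held no batch covariate. The model of the authors did hold batch covariates, and they reported many autosomal genes with lower levels in XO than in XX oocytes. In the fit without covariates, the median log2 fold change was −1.02 for cytosolic and −0.35 for mitochondrial members, beside −0.46 for all genes. The cytosolic median turned on single samples, with −0.34 without XO3 (beside −0.40 for all genes) and −0.67 without XX2, and the mitochondrial median ran from −0.62 without XX2 to −0.20 without XO1. Under TMM scaling 15 of 24 were negative, the medians were −0.50 and 0.10 beside −0.03, so that the mitochondrial sign turned, and Lars2 alone was called, with 6.02% of all genes called lower and 5.9% higher. With the spike-in UMI total as library size, 10 of 24 were negative, the medians were −0.16 and 0.44 beside 0.42 for all genes, and none was called at p below 0.05.

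Lars2, the mitochondrial leucyl synthetase (chromosome 9, 123366927 to 123462666, plus strand, GRCm38), gave the lowest p of the members in edgeR. It measured 162, 486 and 213 normalized CPM in XX, 1237, 735 and 841 in XO, and 308, 178 and 313 in XY oocytes. All XO samples were above all XX and all XY samples, and XX2 was well above the other XX samples. The log2 fold change was −1.71 ± 0.48 (SE) for XX against XO (adjusted p = 0.203 in edgeR), and −1.25 relative to the median of all genes. Lars2 kept its direction and call in each omission of a single sample.

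Iars, the isoleucyl synthetase with the E-box shown above (chromosome 13, 49682100 to 49734267, plus strand), was called lower in XX than in XO with a log2 fold change of −1.54 ± 0.60 (edgeR adjusted p = 0.241). XO2 and XO3 were above all other samples, while XO1 was below all XX samples, so that the genotypes overlapped. The call was lost under TMM scaling (−0.999, edgeR adjusted p = 0.495).

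Fars2, the mitochondrial phenylalanyl synthetase (chromosome 13, 36117412 to 36726280, plus strand), measured 5.70, 4.90 and 6.40 normalized CPM in XX, 4.66, 16.03 and 19.8 in XO, and 4.65, 6.84 and 9.96 in XY oocytes. XO2 and XO3 were the highest, and XO1 was below all XX samples. Its log2 fold change for XX against XO was −1.24 ± 0.52 (edgeR adjusted p = 0.259), and under TMM scaling it was −0.75, where the call was lost (edgeR adjusted p = 0.56).

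Lars, the cytosolic leucyl synthetase (chromosome 18, 42202350 to 42262122, minus strand), measured 51.3, 47.6 and 33.2 normalized CPM in XX, 56.4, 71.3 and 73.4 in XO, and 65.5, 57.0 and 56.7 in XY oocytes. In normalized CPM all XX samples were below all XO and all XY samples. Under TMM scaling they overlapped, with XX2 at 57.3, XO3 at 52.3 and XY3 at 54.3. The log2 fold change for XX against XO was −0.61 ± 0.27 (edgeR adjusted p = 0.275), only −0.15 from the median of all genes, and −0.16 under TMM scaling, where the call was lost (edgeR adjusted p = 0.847). With spike-in totals as library size its sign turned, to 0.11. Tested members whose XX and XO samples did not overlap in normalized CPM were Lars, Ears2 and Lars2, 3 of 24 with XX lower. Of all tested genes, 13.6% had XX below XO without overlap. None lay above, beside 2.79%.

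**Figure D4:**
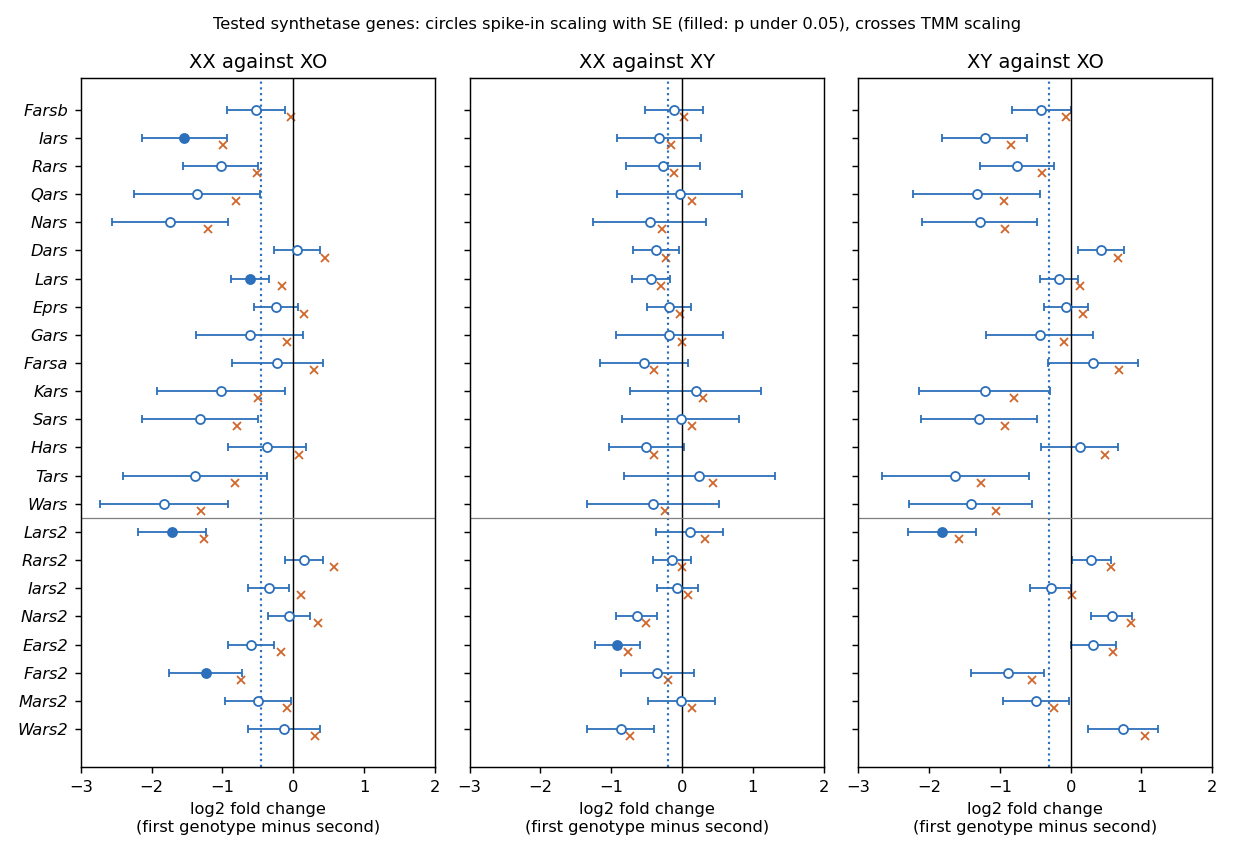
Log2 fold changes (first genotype minus second) of 23 of the 24 tested synthetase genes in 3 comparisons. Circles with bars are the spike-in scaled edgeR estimates ± SE, filled where the unadjusted p is below 0.05. Orange crosses are the estimates under TMM scaling, and the dotted line is the median of all 10993 tested genes. Filled circles are Lars2, Iars, Fars2 and Lars in XX against XO, Ears2 in XX against XY, and Lars2 in XY against XO.

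The counts for XX against XO turned on single samples. Without XO1, 12 members were called lower in XX, where 31.9% of all tested genes were called lower and 3.19% higher. Of these, 8 passed at an adjusted p of 0.05 in edgeR, as did 22.7% of all tested genes. The 12 were Farsb, Iars, Kars, Lars, Nars, Qars, Rars, Sars, Tars, Wars, Fars2 and Lars2. The largest differences were in Wars (−2.33), Nars (−2.23) and Iars (−1.98), the tryptophanyl, asparaginyl and isoleucyl enzymes. Under TMM scaling without XO1, 7 were called lower and 3 higher (Dars, Eprs and Rars2), with 20.4 and 16.8% of all genes. Leaving out XX1, XX2, XX3, XO2, XO3 or XY2 instead left Lars2 as the only call. With the replicate block 6 members were called lower (Iars, Lars, Nars, Wars, Fars2 and Lars2), near the 21.1% of all tested genes. The block also held the XX samples, although no label pairs single XX samples with XY or XO samples beyond the number.

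The values behind these calls were high in XO2 and XO3. Nars measured 46.7, 44.5 and 109 normalized CPM in XX, 29.5, 309 and 333 in XO, and 38.6, 80.4 and 156 in XY oocytes. Qars, the glutaminyl enzyme of the complex, measured 73.0, 56.7 and 152 in XX, 20.2, 277 and 426 in XO, and 40.0, 83.3 and 164 in XY oocytes. In both, XO2 and XO3 were the highest of all 9 samples and XO1 the lowest. Wars measured 1.42, 2.45 and 1.83 in XX, 0.518, 7.75 and 12.4 in XO, and 0.465, 2.28 and 4.53 in XY oocytes. With all samples, Nars (adjusted p = 0.291), Qars (adjusted p = 0.414) and Wars (adjusted p = 0.303) were not called in the edgeR test for XX against XO.

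In XX against XY oocytes, 21 of 24 members had a negative log2 fold change, and Ears2 alone was called lower in XX, beside 4.39% of all tested genes. None was called higher, beside 1.41%. The medians were −0.27 for cytosolic and −0.35 for mitochondrial members, near the −0.19 of all genes. Without XY3 the cytosolic median was 0.02, beside −0.04 for all genes, and the mitochondrial median ran from −0.51 without XX2 to −0.16 without XX3. With the replicate block the calls were Ears2 and Nars2, lower in XX, beside 6.81% of genes. Under TMM scaling 15 of 24 were negative and Ears2 was still the single call, beside 2.77% of genes called lower and 2.58% higher, while with spike-in totals as library size only 4 of 24 were negative.

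Ears2, the mitochondrial glutamyl synthetase (chromosome 7, 122037213 to 122067263, minus strand), measured 10.7, 9.10 and 6.70 normalized CPM in XX, 13.5, 12.9 and 13.5 in XO, and 22.3, 13.998 and 13.9 in XY oocytes. In normalized CPM the 3 genotypes did not overlap, with XX lowest and XY highest. XX and XO overlapped in UMIs (30, 26 and 22 in XX, 26, 25 and 24 in XO). They overlapped under TMM scaling too, where XX1 was at 10.96 and XO3 at 9.66. The log2 fold change was −0.91 ± 0.32 for XX against XY (edgeR adjusted p = 0.682) and −0.76 under TMM scaling, where it was called too. The call was lost with spike-in totals as library size (−0.22, edgeR adjusted p = 0.988), in DESeq2 (−0.76, adjusted p = 0.968) and without the filter on low counts (−0.91, edgeR adjusted p = 0.874). Without XY1, the highest sample, it was −0.66 and no longer called (edgeR adjusted p = 0.991). For XX against XO it was −0.59 ± 0.33 (edgeR adjusted p = 0.341), which was not called.

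Nars2, the mitochondrial asparaginyl enzyme, measured 27.8, 20.3 and 14.6 normalized CPM in XX, 24.9, 19.6 and 20.9 in XO, and 32.1, 34.5 and 31.1 in XY oocytes. All XY samples were above all XX and all XO samples. The log2 fold change was −0.64 ± 0.29 for XX against XY (edgeR adjusted p = 0.877), which was not called. In normalized CPM, Lars, Ears2 and Nars2 were the 3 of 24 tested members with XX below XY without overlap, beside 11.7% of all tested genes. None lay above, beside 4.15%.

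In XY against XO oocytes, 16 of 24 members were negative and Lars2 alone was called lower in XY, beside 8.24% of all tested genes. No member was called higher, beside 1.69%. The median was −0.76 for cytosolic and 0.24 for mitochondrial members, with −0.30 over all genes, and under TMM scaling −0.40 and 0.50. The cytosolic median was −0.16 without XO3, beside −0.22 for all genes, and −1.13 without XO1, beside −0.21, so that without XO3 it lay above that of all genes. The mitochondrial median ran from 0.07 without XY1 to 0.39 without XY3. For Lars2 the log2 fold change was −1.81 ± 0.48 (edgeR adjusted p = 0.485). Its call held under TMM scaling, spike-in totals and each omission of a sample.

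Samples of the same number deviated together in XY and XO oocytes, but so did XY3 with XO2. With the replicate block the calls in XY against XO were Lars2, Tars (−1.66, adjusted p = 0.24) and Wars (−1.41, adjusted p = 0.292) in edgeR, beside 14.1% of all genes called lower. Under TMM scaling Nars2 and Wars2 were called higher in XY, 2 of 24 beside 5.39% of genes. Nars2 and Ears2 were above XO without overlap, beside 3.88%, and Lars2 was below without overlap, beside 6.34%. Without XO1, 11 members were called lower and 2 higher (Dars and Nars2), with 24.2 and 5.69% of all genes. Of these, 3 passed at an adjusted p of 0.05 in edgeR, as did 10.5% of genes. Under TMM scaling without XO1, 10 were called lower and 3 higher, with 17.9 and 16% of genes. XX against XO and XY against XO share their XO samples, so the calls in them are not independent.

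Without the filter on low counts all 37 members were tested, and the calls were partly different genes. In XX against XO 10 were called lower (Iars, Nars, Qars, Rars, Sars, Tars, Wars, Fars2, Hars2 and Lars2), beside 13.5% of all 28051 genes. In XX against XY, Vars and Cars2 were called lower in XX, beside 3.52% of genes. In XY against XO 9 were called lower, with Pars2 and Lars2 among them, beside 8.7%, and Vars was called higher, beside 1.05%. At an adjusted p of 0.05 in edgeR 3, 0 and 1 members passed, beside 5.73, 0.332 and 2.79% of genes. The mitochondrial median for XY against XO, here over 16 genes, was −0.46, against 0.24 for the 9 genes above the filter.

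The batch-regressed log2 values of the authors turned the sign of most cytosolic genes against XO. In limma on these values 20 of the 24 members were higher in XX than in XO oocytes, 11 of them called (beside 36.3% of all tested genes, and 14 of 15 cytosolic members were positive), and 22 of 24 were higher in XY than in XO, 15 of them called (beside 38% of genes). Lars2 was still called lower in XX (−1.47) and in XY (−1.61) than in XO, beside 7.78 and 6.02% of genes. For XX against XY the calls were Ears2 and Nars2, lower in XX, beside 12.6% of genes, and none was higher, beside 10.6%. These p-values are too small, since the regressed batch components were not counted in the degrees of freedom, and how much of the genotype difference the regression took out was not tested.

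The transcript of Lars2 shares sequence with another gene, and the part of this in its level was not tested. A stretch of 72 bases in the last exon of Lars2 (chromosome 9, 123462048 to 123462119, exon 21 of 21, in the 3′ UTR and 373 bases after the coding end) matched a transcript of the antisense gene Gm15564 on chromosome 16 (exons 1 and 2) at 98.6% identity. The stretch is at bases 3278 to 3349 of a Lars2 transcript of 3894 bases, whereas the UMIs counted mark 5′ ends. How reads from this stretch were assigned is not given in the sources used here. Gm15564 was named after its values were seen: of 10993 tested genes, its ratio to Lars2 varied least over the 9 samples, with an SD of 0.28 on the log2 scale.

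Gm15564 measured 12.8, 56.4 and 16.5 normalized CPM in XX, 122, 72.4 and 87.5 in XO, and 29.3, 14.3 and 17.8 in XY oocytes. Like Lars2, it was higher in all XO samples than in any XX or XY sample, and XX2 was its highest XX sample. Lars2 varied 7.62-fold and Gm15564 9.53-fold, while Lars2 stayed at 8.63 to 17.6 times Gm15564, as the plot of both genes shows. The next gene in this order was Kpna1 (SD 0.38), which is also on chromosome 16, followed by Gm10338 (0.50), Dsel (0.53) and Srgn (0.55).

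**Figure D5:**
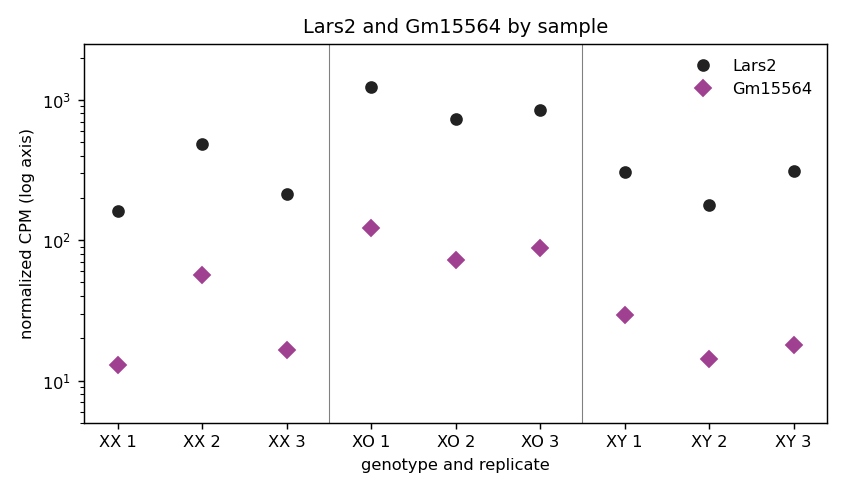
Level of Lars2 (black circles) and Gm15564 (purple diamonds) in each sample, in normalized CPM on a log axis, with grey lines between genotypes. Both genes are highest in the 3 XO samples and rise together in XX2, and their ratio stays between 8.63 and 17.6.

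Other members also overlap genes, and their levels carry that limit. Aars shares 1326 exon bases with Exosc6 on the same strand, and Tarsl2 shares 120 with Tm2d3. On the opposite strand 14 members share exon bases with another gene, among them Fars2, Ears2, Farsb and Nars2, although the alignment kept strand. Cars and Kars, like Lars2, hold a stretch of at least 50 bases at 95% identity or more that recurs in a transcript from another locus.

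The remaining genes of transfer RNA charging and translation were counted from lists, each beside the share of all tested genes called in the same comparison. Of the 3 scaffolds of the multisynthetase complex, 2 were called lower in XX than in XO, beside 16.7% of all genes: Eef1e1 (21.6 against 64.9 normalized CPM, log2 fold change −1.58 ± 0.69, edgeR adjusted p = 0.272) and Aimp2 (3.76 against 11.2, −1.55 ± 0.65, edgeR adjusted p = 0.262). Aimp1 (54.6 against 62.5) was not. The list median was −1.55, and that of all genes −0.46. In XY against XO, Aimp2 was called lower (3.68 against 11.2), beside 8.24% of genes. With the replicate block 2 of 3 were called lower there, beside 14.1%. No scaffold was called under TMM scaling in any comparison.

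Of 19 amino acid response genes, which include the factor ATF4 and its targets, 10 were tested, and in XX against XO 4 were called lower and 1 higher, beside 16.7 and 1.4% of all genes, with a median of −0.78 beside −0.46. Atf4 measured 15.3 normalized CPM in XX and 42.7 in XO oocytes (−1.48 ± 0.29). Eif2ak4, the kinase that senses uncharged transfer RNA, measured 10.4 and 20.2 (−0.96 ± 0.33). Slc7a11 (104 and 198) and Slc3a2 (4.40 and 13.3), subunits of the cystine transporter, were lower as well. Phgdh, the first enzyme of serine synthesis, was called higher in XX, with 34.9 against 19.4 in XO and 13.5 in XY oocytes. In XY against XO, Atf4, Eif2ak4, Slc7a11 and Slc3a2 were again called lower, 4 of 10 beside 8.24% of genes, and in no case was the adjusted p below 0.05. Under TMM scaling 2 of 10 were called lower and 1 higher in XX against XO, beside 6.02 and 5.9%.

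In the other lists too, calls are at unadjusted p. For XX against XO, 0% of all tested genes passed at an adjusted p of 0.05 in edgeR. Of 5 cytosolic elongation factors, 1 was called lower in XX than in XO (Eef1d, 33.6 against 407), beside 16.7% of genes. None was called for XX against XY. Of 8 tested mitochondrial translation factors, Mtrf1, a release factor family gene, was called lower in XX than in XO (89.6 against 181) and than in XY oocytes (139), 1 of 8 beside 16.7 and 4.39%. Of 19 tested tRNA maturation genes, 3 were called lower in XX than in XO (Pop4 and Rpp14 of RNase P, and Adat1, an adenosine deaminase acting on transfer RNA) and 2 in XY than in XO (Pop4 and Rpp14), near the 16.7 and 8.24% of all genes. Their median for XX against XO was −0.41, beside −0.46 for all genes. No editing or selenocysteine enzyme was called among 3 tested, and none of the 4 mitochondrial charging helpers passed the filter.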

How the data were processed

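RNA from 9 pools of 30 oocytes (3 per genotype) was analysed. The authors aligned the Smart-seq3 reads with Hisat2 in stranded paired-end mode to GRCm38 and Gencode, and deposited counts of 5′ UMIs per gene, with 79 ERCC spike-ins as further rows. Their deposited signal, here called normalized CPM, is the count scaled to the library total (CPM) and divided by a spike-in factor, so that 1 UMI equals 0.302 to 0.565. Their deposited log2 values had batch effects estimated with sva and regressed out. The XO column without a number was taken as XO1. Versions of the upstream tools are not given in the sources used here.

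UMI counts were fitted with the quasi-likelihood test of edgeR 4.0.16 in R 4.3.3 (two-sided, all 9 samples, a mean per genotype, spike-in factors). Spike-in rows were left out of library sizes and tests, and 10993 genes passed filterByExpr with a minimum count of 10. A gene was called at p below 0.05, with Benjamini-Hochberg adjustment over all tested genes beside it. The alternatives were TMM scaling, spike-in totals, no filter, DESeq2 1.42.0, limma 3.58.1 on the batch-regressed values, a replicate block, and omission of each sample. The fit was tested on simulated counts. Shared stretches of at least 50 bases at 95% identity were sought with blastn 2.17.0, and promoters came from RefSeq (GRCm38.p6).

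Values in every sample were given for called members, the 3 highest and 3 lowest of each class, Tarsl2, and the amino acid pairs with the highest and lowest ratio. Single items are not reported here and were left out of the plots. Nars, Qars, Farsa, Wars and Nars2 were added after their values were seen. The members, the lists and this rule were chosen with earlier results of these data known. The p-values measure the spread between pools of oocytes, and the limits from 3 UMIs cover counting error only.

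Same-numbered XY and XO samples deviated together (correlations of 0.83, 0.278 and 0.773), so their numbers were treated as pairs from the values alone. Of the unlike numbers, XY3 with XO2 (0.721) and XY2 with XO3 (0.158) were positive and the others negative. The correlation of XY3 with XO2 was thus above that of XY2 with XO2, and these values do not settle the pairing. Those of XX with XO (0.468, −0.447 and 0.679) and of XX with XY (0.435, −0.0595 and 0.726) did not all do so.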

Additional observations from a re-analysis of the deposited data

How the results depend on the processing

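Lars2 was lower in XX and in XY than in XO oocytes under every setting tried, and its call was lost only for XX against XO, with spike-in totals (−0.92, edgeR adjusted p = 0.918) and without XO1 under TMM scaling (−0.87, adjusted p = 0.193), a setting chosen after seeing the data. Log2 fold changes of Iars and Fars2 for XX against XO turned to 0.12 and 0.14 in the batch-regressed values, and that of Lars to 0.11 with spike-in totals; the cause was not tested. The count of members called lower in XX than in XO, 4 in the reported fit, was 1 under TMM, 0 with spike-in totals, 10 without a filter, 2 in DESeq2, 1 in the batch-regressed values, 1 with the replicate block under TMM and 7 without XO1 under TMM, and members called higher numbered 1, 3 and 11 with the block under TMM, without XO1 under TMM and in the batch-regressed values. For XX against XY the count lower, 1 as reported, was 0 with spike-in totals and in DESeq2 (edgeR called 1) and 2 without a filter (Vars and Cars2 in place of Ears2), with the replicate block and in the batch-regressed values. For XY against XO the count lower, 1 as reported, was 9 without a filter, 3 with the replicate block, 2 with the block under TMM and 10 without XO1 under TMM, and the count higher was 2 under TMM, 1 without a filter and in DESeq2, 3 with the block under TMM and without XO1 under TMM, and 15 in the batch-regressed values. Omitting single samples gave 1 to 12 lower for XX against XO (12 without XO1, 3 without XY1, 2 without XY3, otherwise 1), 0 to 2 for XX against XY (0 without XY1, 2 without XX1 or XO1), 1 to 11 lower for XY against XO (11 without XO1, 2 without XY3) and 0 to 2 higher. With the replicate block XX against XO gave 6 lower (21.1% of all tested genes). Beside these counts, the share of all tested genes called lower in XX than in XO ran from 0.482% with spike-in totals to 31.9% without XO1, with 13.5% without a filter and 9.65% in DESeq2. The mitochondrial share of synthetase UMIs was 17.4, 13.8 and 18.2% in XX, XO and XY without Lars2, and 18.3 and 24.9% in XO and XY without the highest gene of each class, and it ran from 28.0 to 37.8, 31.1 to 50.7 and 28.4 to 34.2% when single samples were omitted. Genes with few UMIs, such as Cars2, Yars and Pars2, were removed by the filter, and their calls without it rest on few molecules.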
